A study of Homo sapiens with 10 samples.

Results

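The FOXA and GATA pioneer factors were followed through hepatic differentiation of human embryonic stem cells (hESCs) of the established line H1. The 7 genes were FOXA1, FOXA2, FOXA3, GATA2, GATA3, GATA4 and GATA6, chosen by name, and all 7 were found among the 12125 genes of the deposited RNA-seq table. A single RNA-seq library was made daily from day 0 to day 3, every other day from day 5 to day 13, and at day 21, 10 libraries in all. The cells were undifferentiated at day 0. They were then kept in RPMI/B27 medium with 100 ng/ml Activin A up to day 3 (without insulin), with 30 ng/ml FGF4 and 20 ng/ml BMP2 up to day 7, and with HGF and KGF (both 20 ng/ml) up to day 13, followed by 20 ng/ml Oncostatin M (OSM) in a hepatocyte culture medium up to day 21. The label of the day 13 library names OSM, whereas in the protocol day 13 closes the HGF and KGF step, and the protocol was followed here. All libraries came from the same line and no culture without the factors was analysed here, so that day and medium cannot be told apart.

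Pioneer factors bind their motifs in closed chromatin and open it for other regulators. FOXA proteins carry a forkhead domain and GATA proteins carry zinc fingers that read the letters GATA. FOXA2 and GATA6 act in the making of definitive endoderm (DE), GATA4 with GATA6 in the foregut and liver bud, and FOXA1 and FOXA2 together are needed for the onset of hepatic genes. GATA2 and GATA3 are better known from blood, endothelium, trophoblast and T cells.

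The values are scores that the authors normalized for GC content, and not read counts. They are whole numbers whose total per library lay between 2330948 and 2362740 and whose median was 81 or 82. The paper states an average depth over its samples, sequenced on a MiSeq, but none per library. The depth of each library is thus unknown and no counting interval can be given. Whether scores at or near 0 reflect absent RNA or too few reads was not tested. None of the 7 genes exceeded a score of 642, far below the maximum of 18734. Every gene of the table had a score of at least 26 in at least 2 libraries. Genes low at all days are thus absent, and shares, percentiles and list medians cover only genes in the table. Changes are given as differences of log2(score + 1), and the added 1 makes those of low genes too small. Because no day was repeated, differences between days carry no p-value. As a measure of spread, the SD of the log2 difference between days 9 and 11, which share a medium, was taken over the 500 genes nearest in level. It was 0.93 at a score of 10, 0.51 at 50, 0.33 at 100 and 0.28 at 500. This SD also holds any change between those days. It holds no spread between separate cultures, however, and is a low measure. FOXA1 itself differed by 0.75 (SD 0.3) between days 9 and 11, beyond 2 SD. A gene was called higher or lower between 2 days at a log2 difference of at least 2 (4-fold) with a larger score of at least 50. Between days 9 and 11, 6 of the 7 genes reached that score. The rule called none of them in either direction, against 0.107% of 8444 genes higher and 0.107% lower. Fewer cells of a type and less RNA per cell cannot be told apart in these bulk libraries.

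Marker genes were read at days 0, 3 and 21, from lists chosen with earlier results of these data known. They are thus no independent check of the day labels, and the label of day 13 was not checked. The median log2(score + 1) of 8 pluripotent cell markers was 10.64 at day 0 and 2.45 at day 21. That of 11 DE genes was 2.81 at day 0 and 9.15 at day 3, and that of 16 liver genes was 2.90 at day 3 and 11.74 at day 21.

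Related genes can share reads, and the longest identical stretches between the coding sequences of paralogues were read from GENCODE release 29 to show how far this could go. FOXA1 and FOXA2 shared a run of 48 bases within the forkhead domain, and FOXA3 shared at most 29 bases with either of them. Among the GATA genes the longest run was 35 bases, between GATA2 and GATA6 within the first zinc finger, and the other pairs shared 17 to 29 bases. The read length is not given in the sources used here, and the part of shared reads in the scores was not tested. The 2 longest runs are shown, 5′ to 3′.
FOXA1 and FOXA2: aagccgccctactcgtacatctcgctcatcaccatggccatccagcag
GATA2 and GATA6: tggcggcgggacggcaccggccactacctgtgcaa

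**Figure D1:**
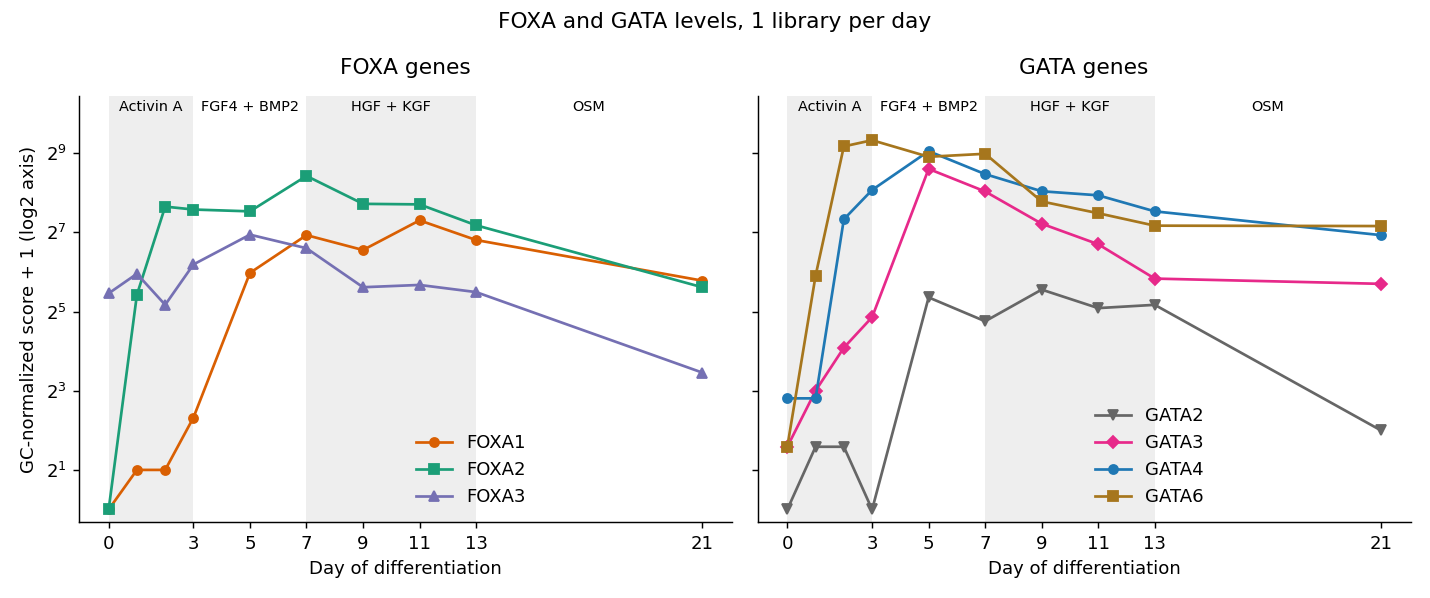
GC-normalized score + 1 (log2 axis) of the FOXA genes (left) and GATA genes (right) against day of differentiation, 1 library per point, with grey and white bands for the media. FOXA2, GATA6 and GATA4 climb within the Activin A step. GATA3 goes from 2 to 28 in that step and to 388 at day 5, and GATA2 and FOXA1 are at 4 or less up to day 3. All 7 genes are lower at day 21 than at day 13, GATA6 only from 143 to 142 and GATA3 from 56 to 51.

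GATA6, GATA4 and FOXA2 were the genes of the Activin A step. All 3 were called higher at day 3 than at day 0, against 3.94% of the 8934 genes tested, and no member was called lower, against 2.16%. Of the 7 members, 4 reached the minimum score at either day, the other being FOXA3. Positions below are those of the deposited table, whose build is not named. GATA6, a zinc finger factor of primitive and definitive endoderm, is listed as ENSG00000141448 on chromosome 18 (19749404 to 19782491, plus strand). Its scores were 2 in hESCs, 59, 576 and 642 on days 1 to 3 of Activin A, 480 and 506 on days 5 and 7 of FGF4 with BMP2, 219, 178 and 143 on days 9, 11 and 13 of HGF with KGF, and 142 after OSM. The 4 scores from day 2 to day 7 lay above all others, and days 2, 5 and 7 were within 2 SD of the day 3 maximum. From day 0 to day 3 the log2 difference was 7.74, with an SD of 0.39. At day 3 GATA6 stood at the percentile 95.3 of the genes of the table, against 3.28 at day 0.

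FOXA2, the forkhead factor that marks DE and is required for foregut, is listed as ENSG00000125798 on chromosome 20 (22561643 to 22566093, minus strand). FOXA2 was listed at 0 in hESCs. Its scores were 42, 200 and 190 on days 1 to 3, 184 and 343 on days 5 and 7, 210, 208 and 144 on days 9, 11 and 13, and 48 on day 21. The scores of days 2, 3 and 5 formed a plateau within 2 SD of each other, and day 7 stood above it, by 0.89 from day 5 with an SD of 0.26. The log2 difference from day 0 to day 3 was 7.58. Adding 0.1 instead of 1 to the scores gave 10.89 and adding 5 gave 5.29, because FOXA2 is listed at 0 at day 0, and no fold is given. FOXA2 and GATA6 had already reached 42 and 59 at day 1, when GATA4 was still at 6.

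GATA4, a partner of GATA6 in endoderm and heart, is listed as ENSG00000136574 on chromosome 8 (11534468 to 11617509, plus strand). Its scores were 6 in hESCs and 6, 160 and 268 on days 1 to 3, 530 and 354 on days 5 and 7, 262, 244 and 184 on days 9, 11 and 13, and 121 on day 21. GATA4 thus trailed GATA6 at the start and had its highest score later. From day 3 to day 5, GATA4 differed by 0.98 (SD 0.25) and GATA6 by -0.42 (SD 0.28). No other day lay within 2 SD of the day 5 score of GATA4.

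**Figure D2:**
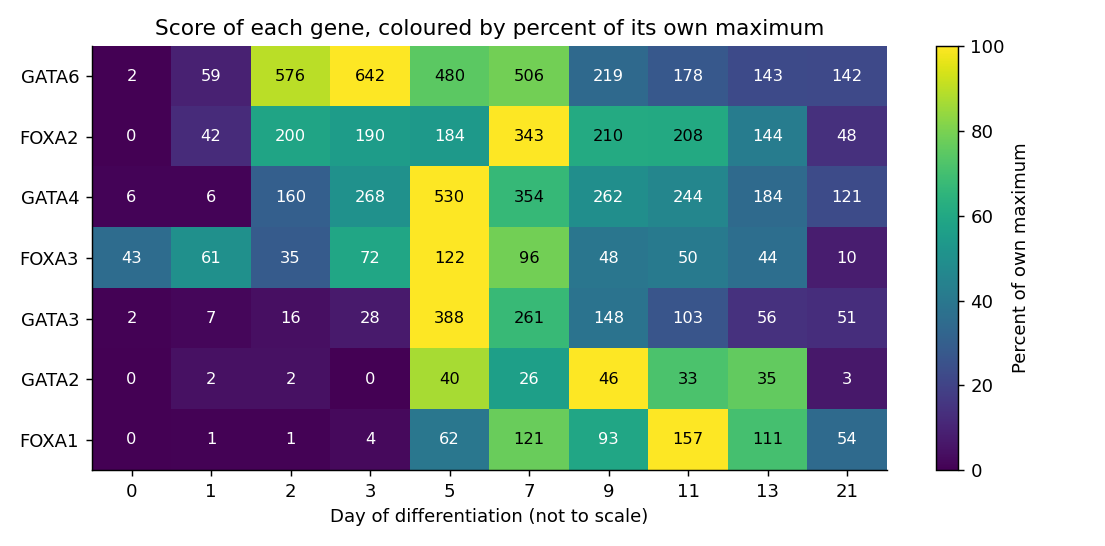
Each cell gives the score of a gene (rows) in the library of a day (columns, not to scale), coloured by the percent of that gene's own maximum. GATA6 and FOXA2 pass 50% of their maximum at day 2 and GATA4 at day 3, GATA3 and GATA2 at day 5 and FOXA1 at day 7, while FOXA3 is already above 10% at day 0.

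FOXA1 and GATA3 followed in the FGF4 and BMP2 step. Both were called higher at day 7 than at day 3, against 5.63% of 9100 genes, and no member was called lower, against 4.41%. All members but GATA2 reached the minimum score. FOXA1, the closest paralogue of FOXA2, is listed as ENSG00000129514 on chromosome 14 (38059189 to 38064239, minus strand). FOXA1 was listed at 0 in hESCs. Its scores were 1, 1 and 4 on days 1 to 3, 62 and 121 on days 5 and 7, 93, 157 and 111 on days 9, 11 and 13, and 54 on day 21. All scores up to day 3 were under 5, and all from day 5 were at least 54. The log2 difference from day 3 to day 7 was 4.61 (SD 0.54). Days 7 and 13 lay within 2 SD of the day 11 maximum of FOXA1, so that its peak day is not fixed by these libraries.

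GATA3, a zinc finger factor of T cells, trophoblast and several epithelia, is listed as ENSG00000107485 on chromosome 10 (8095567 to 8097516, plus strand). The listed interval is shorter than the longest GATA3 transcript of GENCODE release 29 (3123 bases). Its scores were 2 in hESCs, 7, 16 and 28 on days 1 to 3, 388 and 261 on days 5 and 7, 148, 103 and 56 on days 9, 11 and 13, and 51 on day 21. The day 5 score was 13.9 times that of day 3, a log2 difference of 3.75 (SD 0.35). GATA3 was also the narrowest of the 7 in time, with only days 5 and 7 at 50% or more of its maximum, whereas FOXA2 had 6 such days. Of the 6 members tested from day 7 to day 13, GATA3 alone was called lower, by -2.20 (SD 0.30), against 2.46% of 8892 genes. None was called higher, against 3.08%. GATA6 lay just short of the threshold over the same interval, at -1.82 (SD 0.27).

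Upstream sequences of the members were searched for words that forkhead and GATA factors bind. The forkhead word TGTTTAC was searched in this form, in the form TGTTTGC, in the form TATTTAC and in the form TATTTGC. For GATA factors the word AGATAA was searched, or its form TGATAA. The word of FOXH1 was AATCCACA and that of T-box factors was AGGTGTGA. All were searched on both strands of the 250 bases before each RefSeq start (GRCh38.p14). Windows of 5 members were searched, 11 in all. FOXA2 had no entry, and no window of GATA4 was used. A forkhead word was in 2 of these windows, 1 of FOXA1 and 1 of the 6 of GATA3, against 10.6% of 35093 windows of all genes. None of the 11 windows held a GATA word (14.6% of all windows), the FOXH1 word (0.71%) or the T-box word (0.786%). The match of FOXA1 began 235 bases before the start, on the opposite strand, and that of GATA3 began 138 bases before it. The GATA3 window with the match was the farthest upstream of its 6. The other GATA3 windows, which begin from 8049604 to 8060207, held none of the words. These are matches of letters and no binding was measured. The windows of FOXA1 (chr14:37595250-37595499, minus strand) and GATA3 (chr10:8045083-8045332, plus strand) are shown with the forkhead word in capitals, and that of GATA6 (chr18:22169339-22169588, plus strand), the earlier gene, is shown beside them.
FOXA1: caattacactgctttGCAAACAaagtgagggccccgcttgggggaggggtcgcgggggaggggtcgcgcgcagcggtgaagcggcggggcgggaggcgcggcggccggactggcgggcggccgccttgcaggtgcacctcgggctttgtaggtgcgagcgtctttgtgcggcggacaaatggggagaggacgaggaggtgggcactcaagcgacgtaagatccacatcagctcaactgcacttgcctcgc
GATA3: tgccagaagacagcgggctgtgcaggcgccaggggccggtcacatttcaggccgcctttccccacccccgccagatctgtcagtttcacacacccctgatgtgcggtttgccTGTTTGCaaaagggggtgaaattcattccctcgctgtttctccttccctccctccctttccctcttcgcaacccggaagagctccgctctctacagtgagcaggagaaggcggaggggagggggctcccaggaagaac
GATA6: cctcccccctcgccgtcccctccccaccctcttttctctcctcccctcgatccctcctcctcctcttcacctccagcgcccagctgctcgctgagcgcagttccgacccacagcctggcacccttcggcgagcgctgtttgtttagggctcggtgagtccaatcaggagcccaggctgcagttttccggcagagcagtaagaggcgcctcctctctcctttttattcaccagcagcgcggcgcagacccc

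FOXA3 and GATA2 were called in none of the steps. FOXA3, a forkhead factor of liver and gut, is listed as ENSG00000170608 on chromosome 19 (46367518 to 46377054, plus strand). Its scores were 43 in hESCs, 61, 35 and 72 on days 1 to 3, 122 and 96 on days 5 and 7, 48, 50 and 44 on days 9, 11 and 13, and 10 on day 21. It was the only member above a score of 6 in hESCs, and its whole range, 3.48 on the log2 scale, was the smallest of the 7, against 8.43 for FOXA2. From day 0 to day 3 it differed by 0.73 (SD 0.44), within 2 SD. The day 21 score of 10 was the lowest of all days and was separated by more than 2 SD from the next, the 35 of day 2. The gene next to FOXA3, SYMPK, lies on the minus strand with 969 bases between the intervals, so that the 2 genes point away from each other, and it had scores of 196 to 294 throughout. Its part in the early FOXA3 score was not tested.

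GATA2, a factor of blood stem cells and endothelium, is listed as ENSG00000179348 on chromosome 3 (128198270 to 128212028, minus strand). GATA2 was listed at 0 on days 0 and 3. Its scores were 2 on days 1 and 2, 40 and 26 on days 5 and 7, 46, 33 and 35 on days 9, 11 and 13, and 3 on day 21. GATA2 thus had scores of at least 26 at the 5 days from day 5 to day 13 and of at most 3 at the others, and days 5, 7, 11 and 13 were within 2 SD of the day 9 maximum. Because it stayed under a score of 50, it was tested in none of the comparisons. Of 12 endothelial and blood markers, 8 were found, and their summed score ranged from 326 (day 5) to 2084 (day 13), with 363 on day 3 and 1443 on day 21. The day 5 sum was low through KDR, which had 240 on day 3 and 42 on day 5, and the median log2(score + 1) of the 8 was 2.99 on day 3 and 3.71 on day 5. In this list CD34 was called higher from day 3 to day 7, 1 of 3 tested, against 5.63% of all genes. TEK and CDH5 were called higher from day 7 to day 13, 2 of 5 tested, against 3.08%. From day 13 to day 21 PTPRC was called higher, 1 of 6 tested, against 2.28%. PTPRC, which marks all white blood cells, had 39, 12 and 18 on days 0, 1 and 2. It was listed at 0 from day 3 to day 13 and had 65 at day 21. EMCN was at 41 to 63 on days 9 to 13, TIE1 did not exceed 60 and RUNX1 did not exceed 36, and KDR had 517 in hESCs and 823 on day 13. From day 13 to day 21, when GATA2 went from 35 to 3, KDR went from 823 to 302, EMCN from 48 to 32, CDH5 from 152 to 120 and TEK from 889 to 768, and the median of the list from 6.15 to 6.12. The part of endothelial or blood cells in the GATA2 score was not tested.

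**Figure D3:**
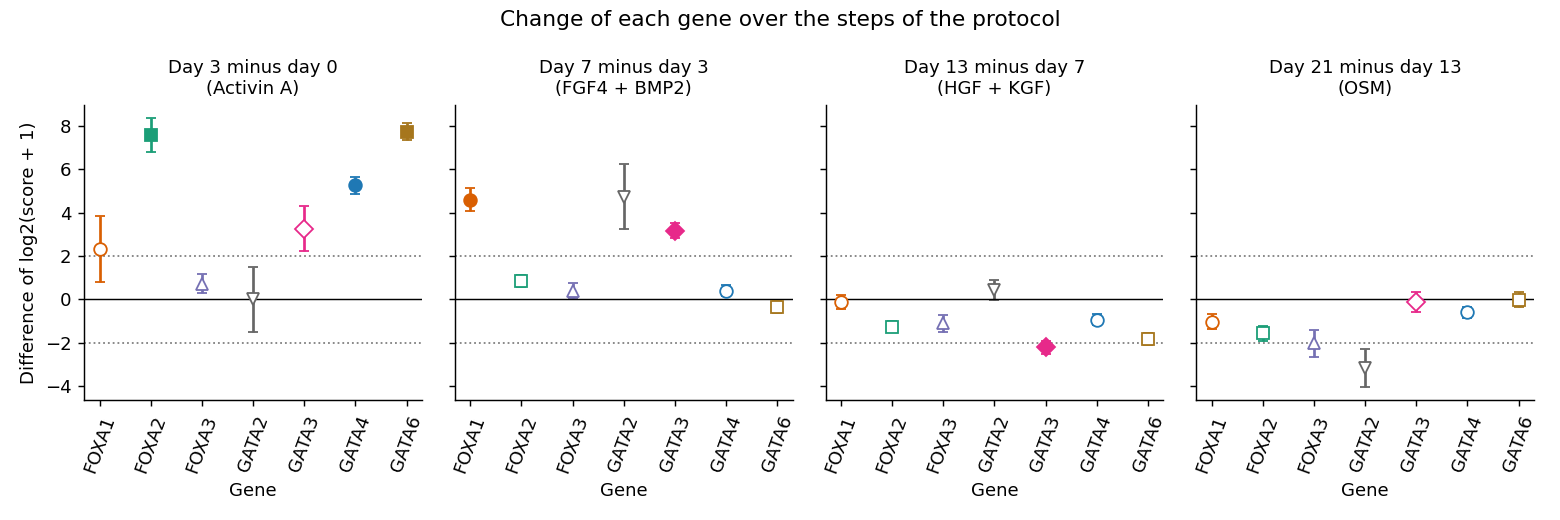
Difference of log2(score + 1) of each gene between the ends of successive steps of the protocol, with bars of 1 SD of the difference between days 9 and 11 at the same level, and filled symbols for genes called at 4-fold (dotted lines). Filled symbols are FOXA2, GATA4 and GATA6 at day 3, FOXA1 and GATA3 at day 7 and GATA3 at day 13, and open symbols include GATA2, which stays below the minimum score.

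From day 7 on most of the genes had lower scores, although FOXA1 and GATA2 had their highest scores at days 11 and 9. At day 13, 6 of the 7 genes were below their day 7 score by some amount, with GATA2 the exception, where 52.0% of all genes were below. For FOXA1 this difference was -0.12 (SD 0.34), within 2 SD. At day 21 all 7 were below their day 13 score by some amount, where 54.2% of all genes were. For GATA6 and GATA3 the differences were -0.01 (SD 0.34) and -0.13 (SD 0.46), within 2 SD. The median log2 difference of the 7 genes was -1.11 from day 7 to day 13, against -0.04 over all genes, and -1.03 from day 13 to day 21, against -0.10. From day 13 to day 21, 5 of the 7 reached the minimum score. None of them was called lower by 4-fold, against 1.62% of 8786 genes, and none higher, against 2.28%. FOXA3 and GATA2, which were not tested, differed by -2.03 and -3.17. GATA6 differed by -1.20 (SD 0.25) from day 7 to day 9, FOXA3 by -0.99 (SD 0.36), GATA3 by -0.81 (SD 0.29) and FOXA2 by -0.71 (SD 0.27), all beyond 2 SD, and FOXA1 by -0.38 (SD 0.35) and GATA4 by -0.43 (SD 0.26), which were not. GATA2 differed by 0.80 (SD 0.43) in the other direction, within 2 SD. Any lower score at day 9 than at day 7 was found for 49.5% of all genes.

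The differences over the last step were graded. From day 13 to day 21 GATA6 went from 143 to 142 and GATA3 from 56 to 51, log2 differences of -0.01 (SD 0.34) and -0.13 (SD 0.46). GATA4 went from 184 to 121, a difference of -0.60 (SD 0.27). FOXA2 went from 144 to 48, a difference of -1.57 (SD 0.35), and FOXA1 from 111 to 54, a difference of -1.03 (SD 0.35). FOXA3 and GATA2, at -2.03 (SD 0.62) and -3.17 (SD 0.86), had the largest differences but low scores. At day 21 the scores were 34.4% of the maximum for FOXA1, 22.8% for GATA4, 22.1% for GATA6, 14.0% for FOXA2, 13.1% for GATA3, 8.20% for FOXA3 and 6.52% for GATA2. FOXA1 thus kept the largest share of its maximum, and it had also been the latest to reach 50%.

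Read-based values usually grow with transcript length, and whether these scores do was not tested. Levels between genes were set side by side per kilobase of the longest GENCODE release 29 coding transcript. At day 3 the score per kilobase was 170.0 for GATA6, 78.5 for GATA4, 78.4 for FOXA2, 36.2 for FOXA3, 8.97 for GATA3 and 1.40 for FOXA1, with GATA2 listed at 0. At day 7 it was 142.0 for FOXA2, 134.0 for GATA6, 104.0 for GATA4, 83.6 for GATA3, 48.3 for FOXA3, 42.3 for FOXA1 and 7.72 for GATA2. At day 21 GATA6 (37.7) and GATA4 (35.4) were again above FOXA2 (19.8), FOXA1 (18.9) and GATA3 (16.3), with FOXA3 at 5.03 and GATA2 at 0.891. Which transcript each gene used was not measured, and the per-kilobase levels rest on the longest. For GATA3 that transcript (3123 bases) is longer than the listed interval of the gene. The per-kilobase levels of GATA3 may thus be too low, and its rank among the genes is not fixed. Within the FOXA genes FOXA3 had the highest score per kilobase at day 0 (21.6), FOXA2 at days 3, 7 and 13, and FOXA2 and FOXA1 lay side by side at day 21.

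Pairs of members differed in how alike their courses were. Across the 10 libraries, Pearson's r of log2(score + 1) was 0.95 for FOXA2 with GATA6, 0.88 for FOXA1 with GATA2 and with GATA3, and 0.87 for GATA3 with GATA4. It was 0.60 for FOXA1 with FOXA2, 0.05 for FOXA1 with FOXA3 and 0.28 for FOXA2 with FOXA3, so that the FOXA genes were less alike among themselves than each of FOXA1 and FOXA2 was to a GATA gene. Spearman's rho lay closer together, at 0.72 for FOXA2 with GATA6 and 0.67 for FOXA1 with FOXA2. For FOXA1 it was 0.73 with GATA2 and 0.81 with GATA3. The points are successive days of 1 course, and these values describe it and carry no test.

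Over the whole table, the genes most like each member were ranked by the same r among 4323 genes with a highest score of at least 50 and a log2 range of at least 2. FOXA1 was most like IHH (r = 0.995), a hedgehog ligand of gut endoderm, which was listed at 0 at day 0 and had scores of 310 at day 7 and 88 at day 21, then B4GALT1 (0.994) and SH3BP5 (0.989). GATA6 was most like RNF152 (0.966), FAM20A (0.960) and FOXA2 (0.951). FOXA2 was most like RP11-498C9.2 (0.960), CDC42EP1 (0.959) and AMOTL2 (0.957). GATA4 was most like EPB49 (0.984), SULF2 (0.979) and DLC1 (0.978), GATA3 was most like PSTPIP2 (0.979), TMX4 (0.977) and PPT2 (0.971), and GATA2 was most like EFHD1 (0.973), SYTL5 (0.937) and PRTG (0.934). FOXA3 had the lowest values, with TIAM1 (0.921), ARHGAP22 (0.918) and SPRY2 (0.915), and all 3 of these had their highest score at day 5, as FOXA3 did. Only 3 of the 21 genes stayed in the list when ranks were used in place of log2 scores.

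LINC00261, a long noncoding RNA known from endoderm, was the one gene of the table within 50 kb of FOXA2. It lies on the same strand from 22541191 to 22559280 on chromosome 20, with 2362 bases between the 2 intervals. LINC00261 was listed at 0 in hESCs. Its scores were 2, 98 and 146 on days 1 to 3, 262 and 1089 on days 5 and 7, 875, 806 and 686 on days 9, 11 and 13, and 113 on day 21. Both genes left 0 within the Activin A step and both had their highest score at day 7, but FOXA2 was at 42 when LINC00261 was at 2, and LINC00261 went on from 146 at day 3 to 1089 at day 7 while FOXA2 went from 190 to 343. Pearson's r between them was 0.86 and Spearman's rho 0.83. LINC00261 lies past the 3′ end of FOXA2, and the part of reads that run past this end was not tested. No gene of the table lay within 50 kb of FOXA1, GATA2 or GATA6. The neighbour of GATA3 was TAF3, with scores of 14 to 51. Those of GATA4 were NEIL2 (32 to 78) and FDFT1 (421 to 1384), both highest in hESCs, and FOXA3 also had IRF2BP1 (40 to 90).

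**Figure D4:**
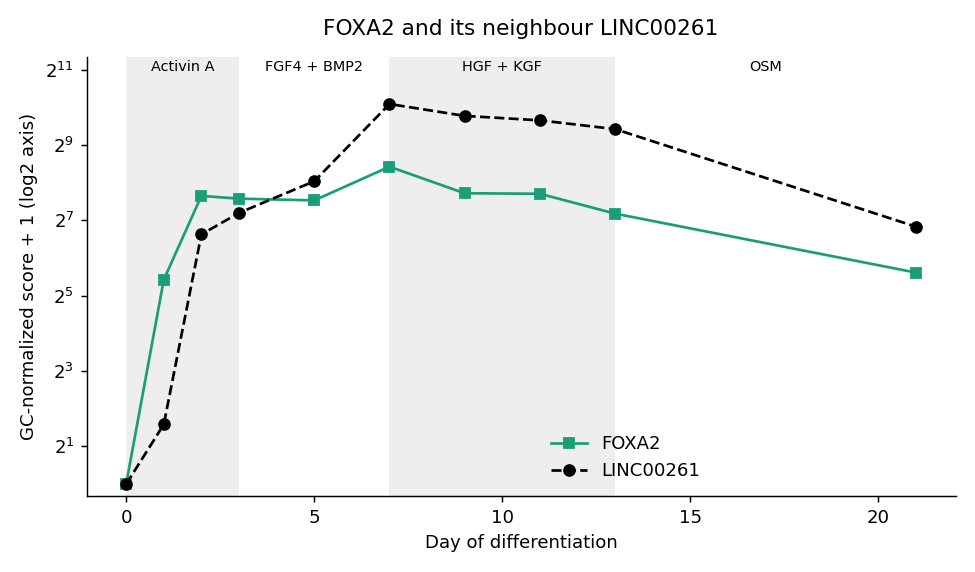
GC-normalized score + 1 (log2 axis) of FOXA2 (squares, solid line) and of LINC00261 (circles, dashed line), its neighbour on the same strand, against day of differentiation, 1 library per point. FOXA2 is ahead at day 1 with 42 against 2, and LINC00261 is above FOXA2 from day 5 on, a comparison not adjusted for length.

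DE genes were high when GATA6, GATA4 and FOXA2 first were, and liver genes followed. Of 11 DE genes, 10 were called higher at day 3 than at day 0, against 3.94% of all genes. From day 3 to day 7, 9 were called lower, against 4.41%, HHEX and KIT being the exceptions. SOX17, the DE factor, had scores of 790, 72 and 4 on days 3, 7 and 13, and EOMES, which acts upstream of it, had 1279, 35 and 4. CER1, MIXL1, GSC, LHX1, OTX2, LGR5 and CXCR4 were likewise called higher and then lower. GATA6, GATA4 and FOXA2 differed by -0.34, 0.40 and 0.85 over that second interval, and none was called. Of 16 liver genes with known FOXA- or GATA-bound enhancers (18 listed), none reached a score of 50 at day 0 or day 3. Of the 12 that did at day 7, 11 were called higher, against 5.63% of all genes. TTR, APOB, AFP and FGB had the largest differences. From day 7 to day 13 TTR, RBP4, SERPINA1 and TF were called higher, 4 of 15 tested, against 3.08% of all genes. From day 13 to day 21 SERPINA1, TF, FGG and ALB were called higher, 4 of 16 tested, against 2.28% of all genes. ALB had scores of 168 and 4866 over this interval. The scores of the 7 factors were all lower by some amount over it, those of GATA6 and GATA3 within 2 SD. The median log2 difference of the liver genes was 0.36 from day 0 to day 3, 5.31 from day 3 to day 7, 0.74 from day 7 to day 13 and 0.00 from day 13 to day 21, when TTR and AFP stood at the maximum of the table at both days.

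**Figure D5:**
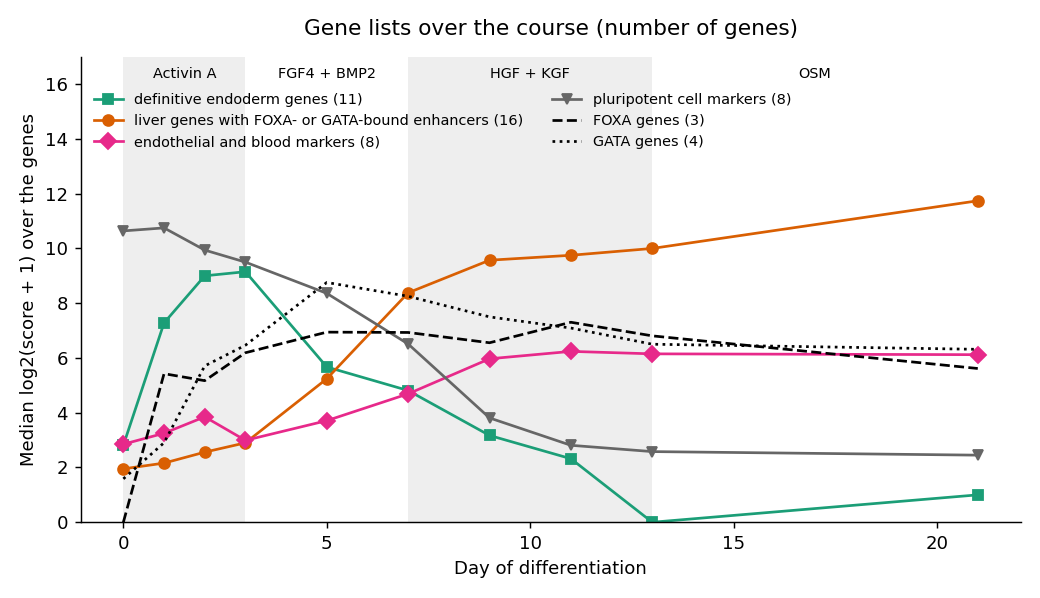
Median log2(score + 1) of gene lists against day of differentiation, with the medians of the 3 FOXA genes (dashed) and 4 GATA genes (dotted) in black. The DE genes peak at day 3, and the liver genes reach 11.74 at day 21. The FOXA and GATA medians climb before the liver genes do, although FOXA1 and GATA2 have scores of 4 or less up to day 3.

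Other GATA-type genes and the GATA cofactors were followed beside the members. Of 12 listed, 10 were found, and GATA5 alone was called, higher at day 7 than at day 3. This was 1 of 7 tested over that interval, where 5.63% of all genes were called higher. GATA5, a GATA factor of gut and heart, was listed at 0 on days 1, 2 and 3 and had 83 and 61 on days 5 and 7, 68 on day 13 and 40 on day 21. GATA2 likewise went from 0 at day 3 to 40 at day 5, whereas GATA3 was already at 28 at day 3. The cofactors ZFPM1 and ZFPM2 (FOG proteins, which bind the zinc fingers) had their highest scores at day 5 too, 47 and 84, against 18 and 38 at day 3, and neither was called. LMO2, LMO4 and LDB1, adaptors of GATA complexes, TRPS1, a repressor with a GATA-type finger, and GATAD1, GATAD2A and GATAD2B, chromatin proteins with such a finger, were not called in any step. The median of the 10 genes differed by 0.05, 0.41, 0.15 and -0.31 over the 4 steps.

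Markers of other tissues that use these factors were also followed. Of 13 trophectoderm and amnion markers 6 were found, and their values do not stand for the whole list. CDX2 and HAND1 were called higher at day 7 than at day 3, when GATA3 was, 2 of 3 tested, against 5.63% of all genes. CDX2 is also a factor of hindgut and HAND1 of mesoderm. CDX2 was listed at 0 up to day 3 and had scores of 48 at day 5 and 116 at day 7. From day 7 to day 13 the courses parted. HAND1 went from 226 to 980 and CDX2 from 116 to 197, while GATA3 went from 261 to 56. At day 5, when GATA3 was highest, TFAP2C had a score of 48, ISL1 of 50 and KRT7 of 1, while GABRP was called lower from day 3 to day 7, and the summed score of the 6 ranged from 263 (day 5) to 1686 (day 0), with 337 on day 3 and 1224 on day 13. GABRP made up most of this sum up to day 3, with 315 on day 3 and 94 on day 5. The median log2(score + 1) of the 6 was 1.79 on day 3 and 5.61 on day 5, over the interval in which GATA3 went from 28 to 388. Of 9 cardiac markers 3 were found, and their summed score was 17, 185 and 217 on days 0, 3 and 13, with MYL7 called higher at day 3 than at day 0 and lower at day 7, MEF2C called higher at day 7, and TBX20 not called. Of 8 mesothelial and stellate markers 2 were found, and RGS5 had scores of 425, 4858 and 1158 on days 3, 5 and 7, and LRAT was called lower from day 0 to day 3. The part of these cells in the GATA scores was not tested.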

How the data were processed

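Total RNA of 10 days was sequenced by the authors (1 library per day). Per the methods and labels, reads were aligned to an Ensembl transcriptome with Bowtie2 2.2.0 and RSEM 1.2.17 and GC-normalized with EDASeq. The labels list both hg19 and mm10 without a role, so coordinates are printed as deposited, except promoter windows (GRCh38.p14). The deposited values are scores and not counts, and no count test was run.

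Members and lists were chosen with earlier results of these data known. Columns were matched to days by name. Python 3.11.15, numpy 2.4.6, pandas 2.3.3, scipy 1.17.1 and matplotlib 3.10.9 were used, and code was first tested on simulated data. Named were the members, the 3 genes most like each, genes within 50 kb, and listed genes (all of lists with up to 12 genes found, otherwise those with the largest called changes). Alternatives were other pseudocounts, scalings, minimum scores, fold thresholds and rank correlation. The study's qPCR data were not analysed here.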

Additional observations from a re-analysis of the deposited data

How the results depend on the processing

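No paired analysis was possible because each day has 1 library. All 4 steps were recounted under other pseudocounts (0.1 and 5), median-of-ratios scaling and a quantile scale, and the numbers of members called higher or lower were the same within 1.5 times. With no minimum score, 5 members in place of 3 were higher at day 3 than at day 0, FOXA1 and GATA3 being added, and 2 in place of 0 were lower at day 21 than at day 13, FOXA3 and GATA2. With a larger score of at least 200, 1 in place of 2 was higher at day 7 than at day 3, which left out FOXA1, and 2 in place of 3 were higher at day 3 than at day 0, which left out FOXA2. At a 2-fold threshold, 4 in place of 1 were lower at day 13 than at day 7, with FOXA2, FOXA3 and GATA6 added, and 2 in place of 0 were lower at day 21 than at day 13, FOXA1 and FOXA2. These follow from the settings themselves. Of 112 recomputed log2 differences of single members, 101 moved by less than 1 SD, 11 by more, and no called difference changed its sign. The uncalled difference of GATA6 from day 13 to day 21 went from -0.01 to 0.08 under median-of-ratios scaling. The day of the highest score was kept for all 7 genes under median-of-ratios scaling. Of the 21 genes most like a member, 3 remained with Spearman's rho and 14 with a highest score of at least 200. Scores under 50 vary most between libraries, which limits GATA2 at all days and FOXA1 and GATA3 before day 5. The same holds for FOXA3 at days 0, 2, 9, 13 and 21 and FOXA2 at days 0, 1 and 21. GATA4 at days 0 and 1 and GATA6 at day 0 were also under 50.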

Other observations

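Of 41 other forkhead genes, 18 were in the table, and 4 were called in any step. FOXO4 and FOXP1 were called higher at day 7 than at day 3, 2 of 13 tested, against 5.63% of all genes. From day 7 to day 13, 1 of 15 was called higher and 1 lower, against 3.08% and 2.46%. FOXF1, a factor of the mesenchyme around the gut, was called higher at day 13 than at day 7. FOXF1 was listed at 0 up to day 5, and its scores were 12 on day 7, 78, 125 and 154 on days 9, 11 and 13, and 98 after OSM. FOXH1, the partner of SMAD proteins in Activin signalling, was called lower over the same interval. Its scores were 200 in hESCs, 226 on day 3, 278 and 146 on days 5 and 7, and 54 and 24 on days 9 and 11, with 0 listed on day 13. FOXF1 was thus still at 0 on day 5, when FOXA1 had 62. The median log2 difference of the 18 genes was -0.19, 0.36, 0.00 and -0.22 over the 4 steps.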
